A study of Mus musculus with 2 samples.

Results

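The potassium channel genes described here are the protein-coding genes of a RefSeq table for mm10 (assembly GRCm38.p6) whose symbols start with Kcn. The rule found 94 genes of 21887 protein-coding genes on chromosomes 1 to 19, X and Y. Lactylation of lysine 12 on histone H4 (H4K12la) was mapped by CUT&Tag, in which an antibody directs a transposase to cut and tag the DNA beside a chromatin mark. The cells were Neuro2a, an established mouse neuroblastoma line. The NaCl control and the treatment with 25 mM lactate have 1 library each, so each difference compares a single pair of libraries, with no replicate to check it. The labels name no other treatment or genetic change, and no duration of the lactate treatment is given in the sources used here.

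Potassium channels let potassium leave or enter the cell and so set the resting voltage and the shape and spacing of action potentials. Voltage-gated channels open on depolarisation, inward rectifiers pass current best near rest, tandem-pore (K2P) channels carry leak current, and calcium- or sodium-activated channels couple firing to ion entry. Silent subunits and accessory proteins assemble with voltage-gated pores and change their gating. Neurons use members of all these classes, and many members are chiefly known from heart, kidney, cochlea or other tissues. The 94 genes fell into 30 voltage-gated pore subunits, 10 silent voltage-gated subunits, 13 accessory subunits or regulators, 15 inward rectifiers, 14 K2P channels, 8 calcium- or sodium-activated pores and 4 beta subunits of the large-conductance calcium-activated (BK) channel. Classes were set by symbol alone, which places Kcnu1 in the calcium- or sodium-activated class whatever its gating.

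The deposited lists held 46592 control and 39768 lactate peaks on the chromosomes kept, called separately in each library and all with q of about 0.05 or below. Reads at a peak's summit were recovered from the authors' fold enrichment and p, and no called peak in either library had a summit under 11 reads. A gene without a call may hold signal below that level. The total number of reads in each library is not given in the sources used here. Intervals are exact Poisson 95% intervals for reads and exact binomial (Clopper-Pearson) 95% intervals for shares, and both cover counting error only. A gene-end peak meets the 1 kb on either side of an annotated end of the gene. A gene-body peak overlaps the gene and meets neither end window.

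Peaks were found at or in 45 of the 94 genes, or 47.9% (37.5% to 58.4%), against 62.4% of all protein-coding genes. Of these 45, 28 had peaks in each library, or 29.8% of members (20.8% to 40.1%) beside 42.6% of all genes. A further 9 had peaks only with lactate, or 9.57% (4.47% to 17.4%) beside 15.0%, and 8 only without it, or 8.51% (3.75% to 16.1%) beside 4.82%. The other 49 genes had no peak in either library. Gene-end peaks were uncommon: 18 genes had one in either library and 39 had a gene-body peak. At gene ends, 10 genes were called in the control, or 10.6% (5.22% to 18.7%), against 32.0% of all protein-coding genes. In the lactate library 16 were called, or 17.0% (10.1% to 26.2%), against 44.8% of all genes. Both libraries called 8 genes, or 8.51%, beside a background of 28.6%. The lactate library alone called 8, also 8.51%, beside 16.2%, and the control alone 2, or 2.13%, beside 3.34%. Counted over genes of every length, gene-body peaks were nearer the background. They were in 34 genes of the control, or 36.2% (26.5% to 46.7%), against 28.7% of all genes. In the lactate library they were in 29, or 30.9% (21.7% to 41.2%), against 31.2%. Members are longer than other genes, with a median of 32.7 kb against 17.2 kb. Up to 200 kb their gene-body shares were below those of all genes of the same length, as given below.

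Promoter windows from RefSeq (GRCm38.p6), running from 250 bases before to 50 after a listed start, were matched for 69 of the 94 genes, with 94 windows in all because several genes have more than 1 listed start. Windows of the members called near their starts are shown first, since they differ widely in CpG content, which over all genes went with calls at the start: windows with a peak within 1 kb of the start held a median of 22.0 CpG pairs and those without one 5.00. All are 5′ to 3′ on the gene's strand, and capitals mark CpG pairs. The first group is called in both libraries. Kcnmb4 encodes a neuronal BK beta subunit, Kcnab2 a beta subunit of voltage-gated channels and Kcnd2 the pore of a rapidly inactivating dendritic current.
Kcnmb4, chr10:116473474-116473773, minus strand: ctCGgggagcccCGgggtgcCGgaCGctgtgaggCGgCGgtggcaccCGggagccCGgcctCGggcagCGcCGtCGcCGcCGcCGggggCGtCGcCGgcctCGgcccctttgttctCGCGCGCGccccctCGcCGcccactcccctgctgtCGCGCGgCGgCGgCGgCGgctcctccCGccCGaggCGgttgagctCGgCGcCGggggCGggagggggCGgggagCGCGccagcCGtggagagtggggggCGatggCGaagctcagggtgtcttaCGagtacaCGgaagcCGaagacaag
Kcnab2, chr4:152477500-152477799, minus strand: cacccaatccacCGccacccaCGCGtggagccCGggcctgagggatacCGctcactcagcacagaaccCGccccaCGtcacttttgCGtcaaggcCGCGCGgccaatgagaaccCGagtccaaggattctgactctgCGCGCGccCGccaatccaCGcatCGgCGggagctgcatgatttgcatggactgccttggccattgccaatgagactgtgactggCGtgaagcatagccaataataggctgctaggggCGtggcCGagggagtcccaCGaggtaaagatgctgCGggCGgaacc
Kcnd2, chr6:21215096-21215395, plus strand: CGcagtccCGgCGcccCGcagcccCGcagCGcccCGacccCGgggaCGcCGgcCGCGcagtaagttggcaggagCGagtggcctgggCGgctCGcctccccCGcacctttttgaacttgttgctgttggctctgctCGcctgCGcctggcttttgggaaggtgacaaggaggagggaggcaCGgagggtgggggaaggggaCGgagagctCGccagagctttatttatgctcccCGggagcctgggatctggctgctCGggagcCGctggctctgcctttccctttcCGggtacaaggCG

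The second group is called in the lactate library alone. Kcnma1 encodes the BK pore, Kcnc1 the pore of a fast delayed rectifier of rapidly firing neurons, and Kcnj9 a subunit of the G-protein-gated inward rectifier.
Kcnma1, chr14:24004156-24004455, minus strand: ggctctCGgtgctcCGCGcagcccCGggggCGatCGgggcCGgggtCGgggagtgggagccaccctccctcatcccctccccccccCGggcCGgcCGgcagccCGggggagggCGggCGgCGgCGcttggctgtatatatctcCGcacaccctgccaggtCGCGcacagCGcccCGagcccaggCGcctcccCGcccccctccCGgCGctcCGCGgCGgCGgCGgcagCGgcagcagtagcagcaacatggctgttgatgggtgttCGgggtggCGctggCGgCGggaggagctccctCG
Kcnc1, chr7:46396218-46396517, plus strand: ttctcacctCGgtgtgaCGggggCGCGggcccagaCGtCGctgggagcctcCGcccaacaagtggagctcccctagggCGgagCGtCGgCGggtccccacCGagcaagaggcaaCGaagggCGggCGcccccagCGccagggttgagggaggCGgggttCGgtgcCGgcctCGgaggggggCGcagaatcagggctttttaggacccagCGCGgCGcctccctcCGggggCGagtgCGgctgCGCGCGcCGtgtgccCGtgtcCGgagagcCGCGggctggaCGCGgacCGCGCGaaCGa
Kcnj9, chr1:172329273-172329572, minus strand: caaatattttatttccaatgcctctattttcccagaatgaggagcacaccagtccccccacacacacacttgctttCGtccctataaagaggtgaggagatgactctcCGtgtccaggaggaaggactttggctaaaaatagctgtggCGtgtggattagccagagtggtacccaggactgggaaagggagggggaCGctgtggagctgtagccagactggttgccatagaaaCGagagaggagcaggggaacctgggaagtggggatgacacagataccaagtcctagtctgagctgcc

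The third group is called in the control alone. Kcna4 encodes a rapidly inactivating Shaker-type pore and Kcnc2 another fast delayed rectifier. Of the 4 Kcnc2 windows, which lie close together, the one farthest upstream is given.
Kcna4, chr2:107290339-107290638, plus strand: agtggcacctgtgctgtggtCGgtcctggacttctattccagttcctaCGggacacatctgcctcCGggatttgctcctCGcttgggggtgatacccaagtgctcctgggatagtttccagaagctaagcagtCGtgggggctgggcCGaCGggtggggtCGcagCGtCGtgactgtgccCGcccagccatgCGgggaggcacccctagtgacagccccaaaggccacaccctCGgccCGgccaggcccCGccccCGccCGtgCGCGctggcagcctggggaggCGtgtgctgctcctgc
Kcnc2, chr10:112269767-112270066, plus strand: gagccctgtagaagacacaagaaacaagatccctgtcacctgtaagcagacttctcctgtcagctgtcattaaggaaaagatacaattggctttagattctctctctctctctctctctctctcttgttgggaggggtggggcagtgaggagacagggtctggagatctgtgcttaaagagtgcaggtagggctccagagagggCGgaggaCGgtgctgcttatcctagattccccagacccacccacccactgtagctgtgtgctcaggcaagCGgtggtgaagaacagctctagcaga

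The Kcnmb4 window held 48 CpG pairs and the Kcnc1 window 41, while those of Kcnma1, Kcnd2, Kcnab2 and Kcna4 held 36, 26, 25 and 20. Kcnj9 and the Kcnc2 window shown had 5 and 3. Windows both rich and poor in CpG pairs were thus found among the called genes.

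Members' promoters held fewer CpG pairs than those of other genes, with a median of 9 over 94 windows against 13.0 over 21263 windows of all protein-coding genes. Within the CpG-rich classes the members were still called less often than all genes, a difference that was described and not tested. Among windows with 24 or more CpG pairs, a lactate peak lay within 1 kb of the start for 7 of 19 member windows, or 36.8%, against 76.0% of all such windows. In the control the shares were 3 of 19, or 15.8%, against 51.9%. With 16 to 23 pairs, lactate peaks met 2 of 16 member windows, or 12.5%, against 68.8%, and control peaks 3 of 16, or 18.8%, against 46.5%. With 0 to 7 pairs the control share of members was 15.4%, 6 of 39 windows, against 9.68%. Of those 6, 4 were the neighbouring windows of Kcnc2, which share 1 locus. The lactate share went the other way, at 2 of 39 windows, or 5.13%, against 11%. With 8 to 15 pairs 1 of 20 member windows, or 5.00%, was met in each library, against 33.4% of all in the control and 49.2% with lactate.

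**Figure D1:**
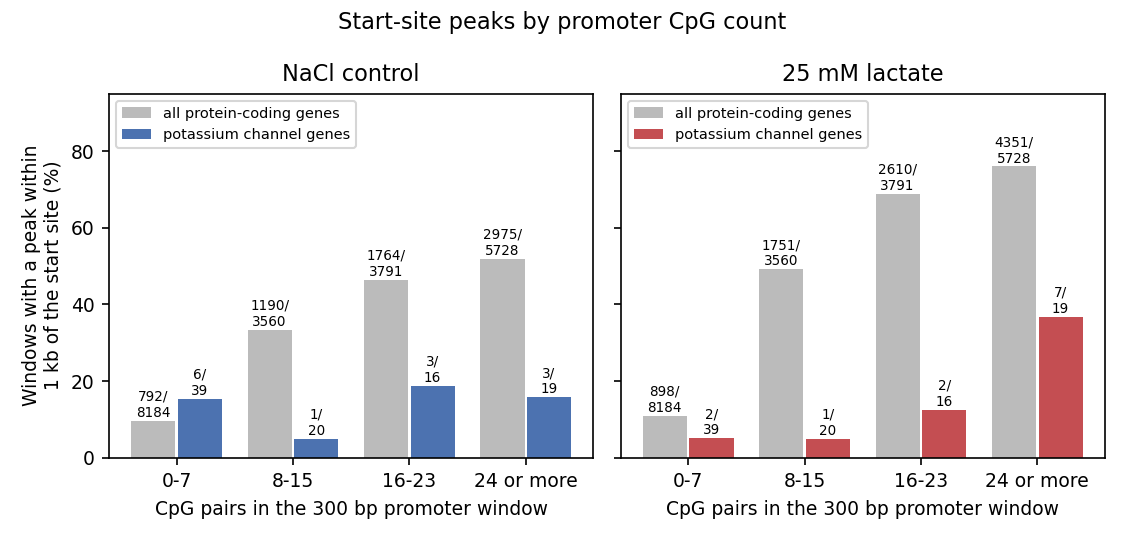
Share of promoter windows with an H4K12la peak within 1 kb of the start (y axis, percent) by the number of CpG pairs in the 300 bp window (x axis), for all protein-coding genes (grey) and potassium channel genes (colour), in the NaCl control (left) and 25 mM lactate library (right). Numbers over the bars are windows with a peak over all windows. In the richest class 7 of 19 member windows had a lactate peak, while 4351 of 5728 windows of all genes did.

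Short motifs were searched in the same windows on both strands. The GC box GGGCGG was in 45 of 94 member windows, or 47.9%, and in 46.2% of all windows. It was in 10 of the 19 member windows with a peak within 1 kb of the start, or 52.6%, and in 35 of the 75 without, or 46.7%. Over all genes it was in 65.9% of windows with such a peak and in 28.2% of those without. The TATA core TATAAA was in 5 member windows, or 5.32%, against 12.6% of all, Kcnj9 among them, and the E-box CACGTG in 7, or 7.45%, against 7.84%. The palindrome TGACGTCA, known as a cAMP response element, was in 0 member windows and in 2.23% of all windows.

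Of the 94 genes, 8 were called at an end in both libraries. Kcnh2, which encodes the ERG channel of cardiac repolarisation and also of neurons, had 16 control reads (9.15 to 26.0) and 27 lactate reads (17.8 to 39.3). These peaks lay about 1 kb beyond its 5′ end and did not touch the gene. The count was higher in the lactate library, and the intervals overlapped.

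Kcnmb4 carried the widest of the gene-end peaks, 1336 bp wide in the control and 1003 bp with lactate, across the promoter window shown above. Its control summit had 16 reads (9.15 to 26.0) and its lactate summit 26 (17.0 to 38.1). The start of a noncoding gene, Kcnmb4os2, lies at the same place, and the peak cannot be given to 1 of the pair. The Kcnab2 peaks had 16 reads (9.15 to 26.0) and 26 reads (17.0 to 38.1), and also met an end window of Nphp4, a neighbouring gene of the primary cilium. A further control peak of 14 reads lay 613 bp upstream of the Kcnab2 start. For Kcnd2 the summits were 14 reads in the control (7.65 to 23.5), 294 bp upstream of the start, and 20 reads in the lactate library (12.2 to 30.9), 408 bp upstream, and both peaks ended before the promoter window shown.

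At 3 of the genes called in both libraries the gene-end peaks did not overlap. Kcnh4, of the ELK group of voltage-gated channels, had 1 control peak with 15 reads (8.40 to 24.7), and lactate peaks on either side of it with 20 and 22 reads. Kcnj16, an inward rectifier best known from kidney and glia, had control peaks of 14 reads near its 5′ end and 17 reads at its 3′ end, and a lactate peak of 13 reads (6.92 to 22.2) at the 3′ end. Kcnv1, a silent subunit, had a control peak of 14 reads beyond its higher-coordinate end and lactate peaks of 16 and 14 reads inside it. The 16-read lactate peak overlapped a control peak of 18 reads (10.7 to 28.4), which missed the end window and counts as a gene-body peak. Overlapping end peaks were thus found at 5 of the 8 genes, Kcnab2, Kcnd2, Kcnh2 and Kcnmb4 among them.

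Across these 8 genes the lactate summit of highest fold had more reads than the control one at 7, Kcnj16 being the exception. Its fold was higher at 4, Kcnd2, Kcnmb4 and Kcnv1 among them. At Kcnh4, Kcnj16 and Kcnv1 the summits compared belong to gene-end peaks that do not overlap, so they mark different places. Both read intervals overlapped at all 8, though overlap is no proof of equal counts. Local background was also higher at the lactate peaks: its median at the members' gene-end peaks was 5.24 reads with lactate and 3.75 without, and over all gene-end peaks 5.42 and 3.36. The part of the background in the difference in reads was not tested. Fold, which takes background into account, at Kcnmb4 was 4.33 with lactate and 3.92 without. It was 3.65 and 4.03 at Kcnh2, in the opposite order to its reads.

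**Figure D2:**
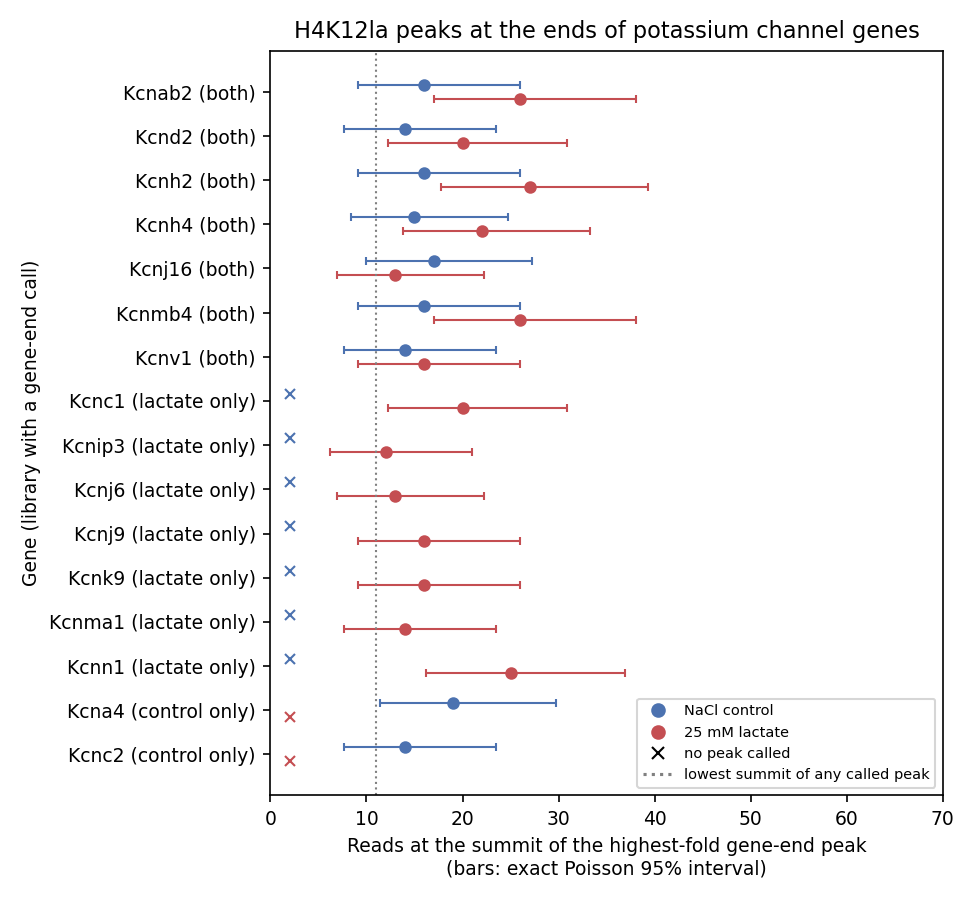
Reads at the summit of the highest-fold gene-end peak (x axis) for 16 of the 18 potassium channel genes with a gene-end call (y axis), in the NaCl control (blue) and 25 mM lactate library (red). Bars are exact Poisson 95% intervals, crosses mark no call, and the dotted line is the lowest summit of any called peak, 11 reads. Among the genes plotted, Kcnh2 in the lactate library stands highest at 27 reads, and the 2 intervals of each gene called in both libraries overlap.

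The 8 genes with a lactate gene-end call and no control one included Kcnc1, Kcnip3, Kcnj6, Kcnj9, Kcnk9, Kcnma1 and Kcnn1. Kcnn1, a small-conductance calcium-activated channel, had the highest summit of these, 25 reads (16.2 to 36.9), 115 bp inside its 5′ end, with a second peak of 21 reads beside it. Kcnc1 had 20 reads (12.2 to 30.9), 44 bp inside its annotated 5′ end. The G-protein-gated inward rectifier subunits Kcnj6 and Kcnj9 had 13 reads (6.92 to 22.2) and 16 reads (9.15 to 26.0), each at the 5′ end. Of the channel's other subunit genes, Kcnj3 had control peaks in its body alone and Kcnj5 had no peak.

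The leak channel Kcnk9 had 16 reads (9.15 to 26.0) about 1 kb beyond its higher-coordinate end, and the BK pore Kcnma1 had 14 reads (7.65 to 23.5) at its 5′ end. Kcnip3, a calcium sensor that binds channels and is also known as a transcriptional repressor, had 12 reads (6.20 to 21.0) at its 3′ end. A separate lactate peak of Kcnip3, with 16 reads, lay 125 bp upstream of an internal listed start. Called in the control alone were Kcna4, with 19 reads (11.4 to 29.7) over its start, and Kcnc2, with 14 reads (7.65 to 23.5) just after the first of its listed starts. The 2 control-only summits lay within the range of the 8 lactate-only genes, 12 to 25 reads.

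No gene-end peak of a member reached a −log10 q of 10 in either library, beside 0.959% of all genes in the control and 5.13% with lactate. For the control, none among 94 members is near that share. At a −log10 q of at least 5, no control call remained, beside 8.54% of all genes, and 4 genes kept a lactate call, or 4.26%, beside 24.1%. Among these, Kcnd2, Kcnh2 and Kcnmb4 had −log10 q values of 6.39, 5.76 and 7.14. Where the strand is listed, 12 of the genes called at an end were called at the 5′ end alone, Kcnip3 at the 3′ end alone and Kcnj16 at both. For the other 4, Kcnk9 and Kcnv1 among them, the end is not assigned to 5′ or 3′ here. The split by 5′ and 3′ end is not given here over all genes, so it cannot be read as particular to members.

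By class, gene-end calls were spread thinly, and over all genes 32.0% were called in the control and 44.8% with lactate. The classes were not set against genes of the same length. Voltage-gated pores had 6 of 30 genes called in each library, 4 of them in both. Inward rectifiers had 1 of 15 called in the control and 3 with lactate, and K2P channels 0 of 14 and 1. Silent subunits had 1 of 10 in each library, accessory subunits 1 of 13 and 2, calcium- or sodium-activated pores 0 of 8 and 2, and BK beta subunits 1 of 4 in each.

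Some subfamilies had almost no peaks. Of the 8 Shaker-type Kcna genes, Kcna4 alone had a peak. Kcna1, Kcna5 and Kcna6, which neighbour each other on chromosome 6, and Kcna2, Kcna3 and Kcna10, which neighbour each other on chromosome 3, had none. All 5 Kcne genes, which encode small single-span accessory subunits, and all 4 Kcng and 3 Kcns silent subunit genes had none. A peak was found at 7 of 8 Kcnh genes and all 4 Kcnip genes. These subfamilies also differ in gene length, with medians of 11 kb for Kcna, 5.75 kb for Kcne, 39.7 kb for Kcng and 7.5 kb for Kcns, and of 156 kb for Kcnh and 215 kb for Kcnip. Over all protein-coding genes 38.6% of those under 10 kb, 71.3% at 10 to 50 kb, 82.5% at 50 to 200 kb and 92.0% at 200 kb or more had a peak, and the part of length in the subfamily counts was not tested. K2P channels had peaks at 5 of 14 genes, Kcnk1, Kcnk2, Kcnk3, Kcnk9 and Kcnk13, and inward rectifiers at 5 of 15, Kcnj3, Kcnj6, Kcnj9, Kcnj12 and Kcnj16. Among the inward rectifiers without a peak were Kcnj11, the pore of the ATP-sensitive channel, and Kcnj10, the glial rectifier.

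Peaks were more frequent in longer members. Members are longer than other genes, with a median of 32.7 kb against 17.2 kb, and 18 of them, or 19.1%, span 200 kb or more, against 4.52% of all genes. The 21 members under 10 kb had 0 gene-body peaks and 1 gene-end call, that of Kcnj9 in the lactate library. Of the 49 genes without any peak, 42 were under 50 kb, and the other 7 included Kcng2, Kcng3, Kcnk10, Kcnk12, Kcns3 and Kcnt1. All 18 members of 200 kb or more had a gene-body peak in at least 1 library. Such peaks were common at that length, and 9.70% of the 990 genes of 200 kb or more had none in either library. Members with any peak were 4.76% of those under 10 kb, 37.1% at 10 to 50 kb and 65% at 50 to 200 kb, each below the share of all genes of that length.

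Gene-end calls were also set against all genes of the same length. In the lactate library 17.1% of members of 10 to 50 kb were called, against 54.1% of all genes of that length, 30.0% against 53.1% at 50 to 200 kb, and 16.7% against 39.8% at 200 kb or more. In the control the shares were 11.4% against 38.4%, 25.0% against 40%, and 5.56% against 30.0%. Gene-body shares of members were also below those of all genes up to 200 kb. At 50 to 200 kb they were 55.0% against 62.5% in the control and 45.0% against 66.4% with lactate. At 200 kb or more they were 94.4% against 86.0% in the control and 72.2% against 79.8% in the lactate library, and at 10 to 50 kb they were 17.1% against 29.6% and 20% against 33.5%.

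**Figure D3:**
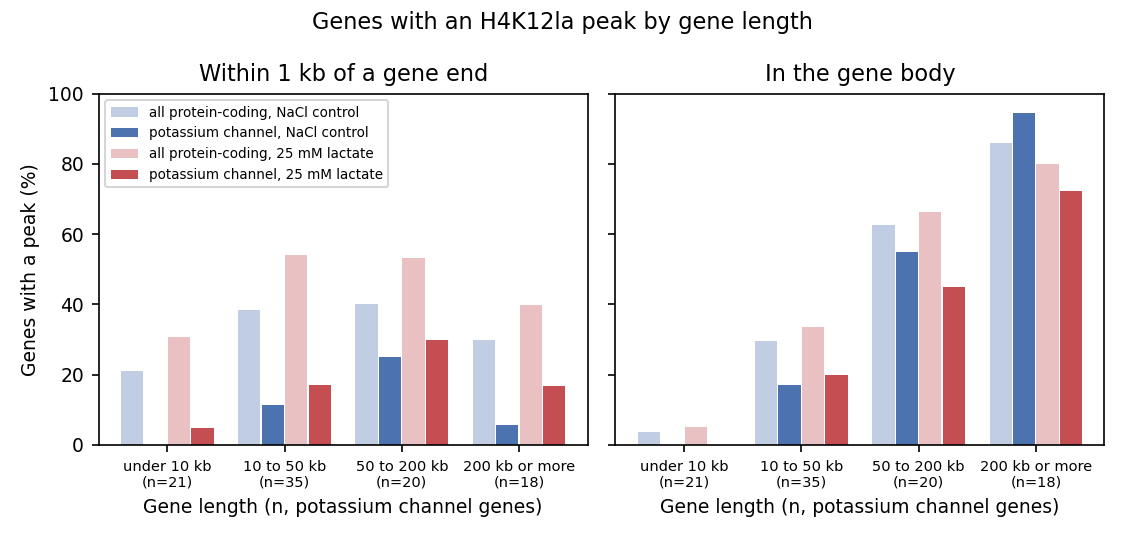
Share of genes with an H4K12la peak (y axis, percent) by gene length (x axis), within 1 kb of a gene end (left) and in the gene body (right), for potassium channel genes (full colour) and all protein-coding genes (pale), in the NaCl control (blue) and 25 mM lactate library (red). Gene-end shares of members lie below those of all genes in each length class, while 17 of the 18 longest members have a control body peak and 13 a lactate one.

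Gene bodies held 128 control and 100 lactate peaks. Per Mb of body, members had 12.2 control peaks (10.2 to 14.5) and 9.53 lactate peaks (7.75 to 11.6), against 16.3 and 16.6 over all genes. Members of 200 kb or more held 75.0% of the control and 64.0% of the lactate body peaks. At that length their densities were 12.4 control peaks per Mb (10.0 to 15.1) and 8.24 lactate peaks (6.34 to 10.5), beside 13.9 and 10.6 for all genes of that length. The lactate share of their 160 peaks was 40% (32.3% to 48.0%), and 43.4% over all genes of that length, so control peaks were the more numerous in long genes of both kinds. Without Kcnd2 and Kcnip4, left out after their values were seen, the lactate share was 47.5% (38.4% to 56.8%), and without Kcnh1, the gene with the most lactate peaks, it was 36.1% (27.9% to 44.9%). Over members of every length, the order of 128 control and 100 lactate body peaks turned with −log10 q held to 5 or more, to 11 and 15. That stricter count was not made for the long members alone. Over the body peaks of all genes, 11.4% of control and 16.5% of lactate ones reached that level.

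**Figure D4:**
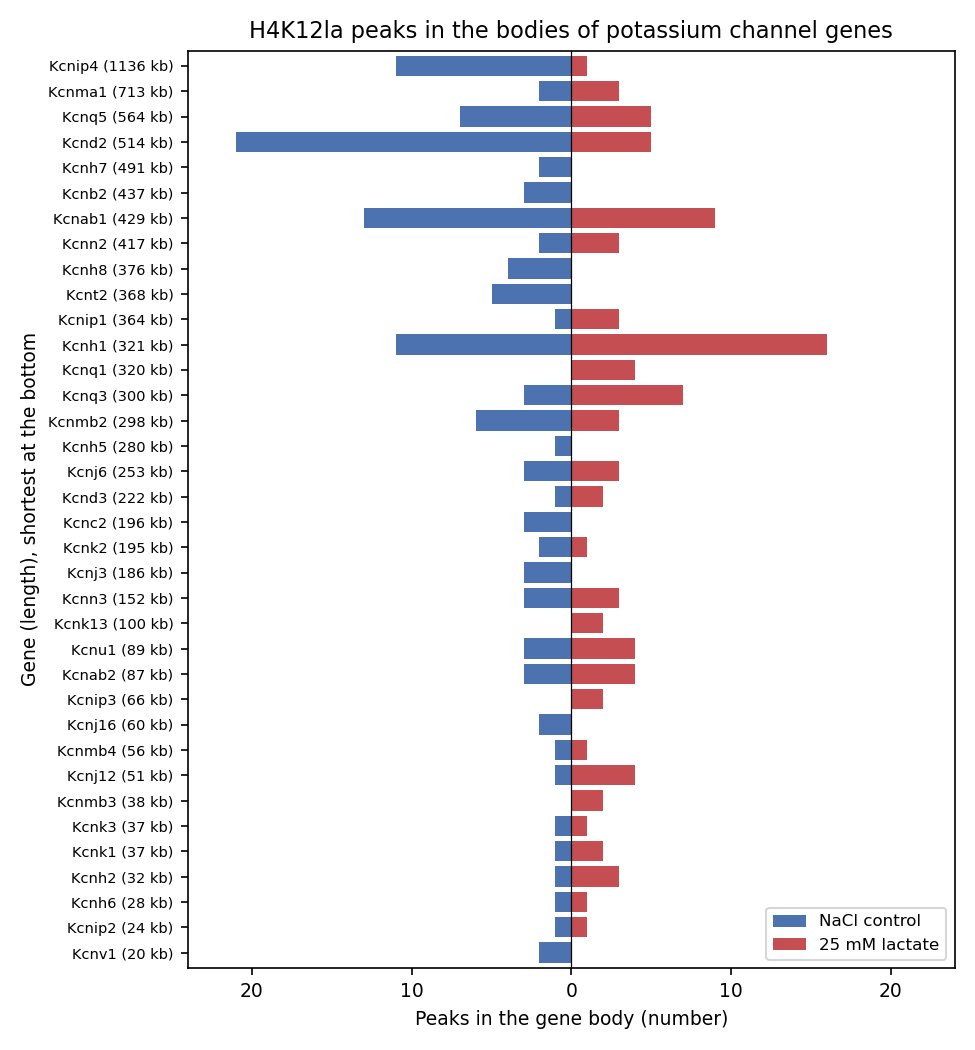
Number of H4K12la peaks in the gene body of 36 of the 39 potassium channel genes with any (x axis; NaCl control to the left in blue, 25 mM lactate to the right in red), with genes ordered by length from the shortest at the bottom (y axis). Kcnd2 has 21 control and 5 lactate peaks, Kcnip4 11 and 1, and Kcnh1 11 and 16.

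Kcnd2, on chromosome 6 at 21215346 to 21729805, had the most control peaks, 21 against 5 in the lactate library. All 5 lactate peaks overlapped a control peak, at about 11.5, 47.8, 179.3, 414.5 and 475.3 kb from the 5′ end. Control peaks at these shared places had a median summit of 19 reads and the 16 others one of 13, with a range of 11 to 16. At a −log10 q of at least 5 Kcnd2 kept 3 control and 2 lactate peaks. Its neighbourhood went the same way: the 500 kb on either side held 36 control and 4 lactate peaks.

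Kcnip4, which encodes a calcium sensor that binds the channel of Kcnd2, is the longest member at 1136 kb. It had 11 control peaks and 1 lactate peak, none of them overlapping, and its control summits of 11 to 17 reads were near the lowest callable. None reached a −log10 q of 5. The 500 kb on either side held 7 control and 9 lactate peaks, so here the surroundings did not share the control excess. Kcnd3, the other long gene of the Kcnd group, had 1 control and 2 lactate peaks, and Kcnip1 1 and 3.

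Kcnh1, the ether-a-go-go channel, known from brain and from many tumour lines, had the most lactate peaks, 16 against 11 in the control. Its strongest peaks coincided, at 264.9 kb from the 5′ end, with 31 control reads (21.1 to 44.0) and 30 lactate reads (20.2 to 42.8). Of its peaks, 5 control and 6 lactate ones overlapped a peak of the other library. Kcnh1 lies in a peak-rich part of chromosome 1, with 51 control and 58 lactate peaks in the 500 kb on either side. The other long Kcnh genes had few: Kcnh7 had 2 control peaks, Kcnh8 4 and Kcnh5 1, and none had a lactate peak.

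Kcnab1, a beta subunit gene of 429 kb, had 13 control and 9 lactate peaks. A lactate peak of 28 reads ran across an internal listed start at 65109014 on chromosome 3, although the gene's annotated ends had no call. A control peak of 20 reads overlapped the lactate one, with its summit 247 bp after that start. That start's promoter window has 3 CpG pairs. Kcnq5, which encodes a subunit of the neuronal M-current channel, also had overlapping peaks near a listed start just inside its 5′ end. These had 13 control and 17 lactate reads, with summits 587 and 541 bp after that start. In all, 6 members had a gene-body peak within 1 kb of a listed start, Kcnab1, Kcnc2, Kcnip3, Kcnj3, Kcnk13 and Kcnq5.

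The member peak of highest fold lay inside Kcnq5, on chromosome 1 at 21632718 to 21633018, 329.8 kb from the 5′ end. The control summit stood 12.74-fold over background with 53 reads (39.7 to 69.3), and the lactate summit 7.64-fold with 30 reads (20.2 to 42.8). Among 16207 control peaks inside genes it ranked at 26 by fold, and among 16310 lactate peaks at 92. No other member peak had a fold above 5.35 in the control or, outside Kcnq5, above 5.11 in the lactate library. Whether repeated sequence lies there was not examined here. Kcnq3, another M-current subunit gene, had 3 control peaks, each with a lactate partner, and 7 lactate peaks. Kcnmb2, a BK beta subunit, had 6 control and 3 lactate peaks, 2 of each overlapping.

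**Figure D5:**
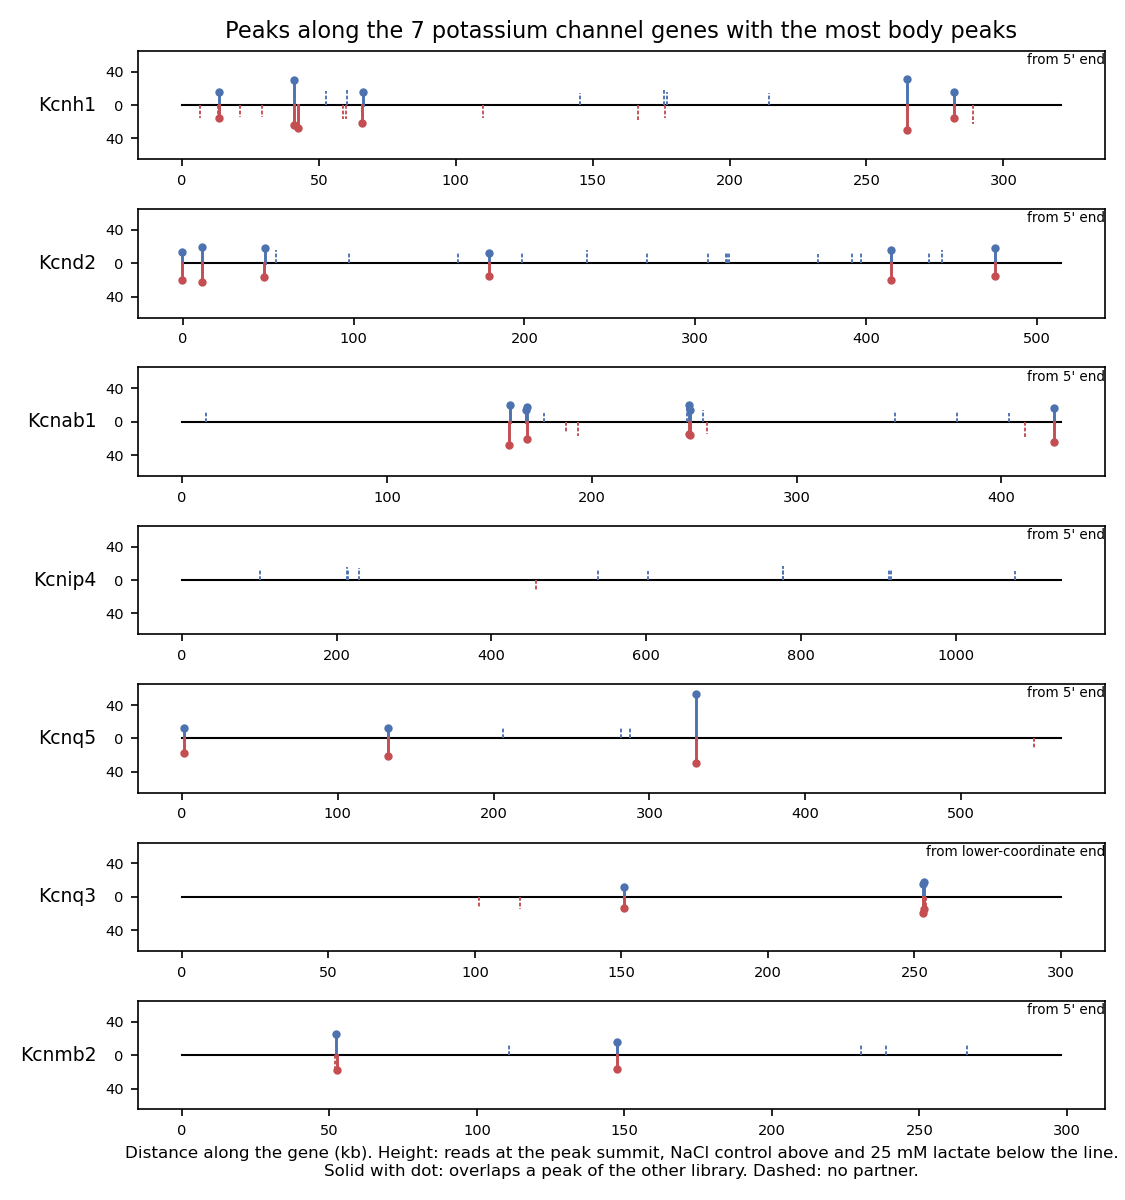
Position and summit reads of H4K12la peaks along the 7 potassium channel genes with the most body peaks (x axis, distance in kb from the 5′ end, or from the lower-coordinate end for Kcnq3; height, summit reads, with the NaCl control above and 25 mM lactate below the line). Solid lines with dots overlap a peak of the other library and dashed lines do not. All 5 lactate body peaks of Kcnd2 stand opposite a control peak, while the 11 control peaks and 1 lactate peak of Kcnip4 have no partner.

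Some members of moderate peak number carried single peaks with a fold above the median of members' body peaks, 3.54 in the control and 3.24 with lactate. Kcnma1, at 713 kb the longest member after Kcnip4, had 2 control and 3 lactate body peaks, each with a partner. The higher control one had 21 reads (13.0 to 32.1) and a fold of 5.21 at 119.4 kb from the 5′ end, and the lactate peaks over the same place had 14 and 12 reads. In Kcnj6 a lactate peak of 21 reads (13.0 to 32.1) lay over a control peak of 15 (8.40 to 24.7), and its read interval overlapped the control's. Kcnh6, of the same ERG group as Kcnh2, had 1 shared body peak with 22 control reads (13.8 to 33.3) and 32 lactate reads (21.9 to 45.2), the most of any lactate body peak of a member. Kcnc2 had 3 body peaks, all in the control, the highest with 17 reads (9.90 to 27.2), 51.7 kb from the 5′ end. None of the Kcnc2 body peaks reached a −log10 q of 5.

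Kcnab2 and Kcnu1 each had 3 control and 4 lactate body peaks. Kcnu1 encodes a channel known from sperm, and its summits had 13 to 16 control reads and 12 to 18 lactate reads, with 1 shared place near its higher-coordinate end. In Kcnab2 the shared place, 71.4 kb from the 5′ end, had 20 control and 22 lactate reads. The other body peaks of these genes had no counterpart in the other library.

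Among the 18 long members, 5 had control body peaks alone, Kcnb2, Kcnh5, Kcnh7, Kcnh8 and Kcnt2, or 27.8% beside 10.5% of all long genes, and Kcnq1 alone had lactate peaks only, or 5.56% beside 4.34%. Kcnb2 is a delayed rectifier pore and Kcnt2 a sodium-activated channel. Their control summits had 13 to 17 reads in the 3 peaks of Kcnb2 and 12 to 15 in the 5 of Kcnt2, and none reached a −log10 q of 5. The 500 kb on either side of Kcnt2 held 29 control and 3 lactate peaks, and for Kcnh8 26 and 5. Over the 16 members of any length with more control than lactate body peaks, the surroundings had more control peaks at 11, or 68.8%, against 37.2% of 2702 such genes. Over the 17 with more lactate peaks, the surroundings had more lactate peaks at 12, or 70.6%, against 79.3% of 3733. Where the control had at least 3 more body peaks the share was 66.7% both for the 9 members and for the 475 genes in all.

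Kcnq1, a channel of heart and epithelia in an imprinted region of chromosome 7, had 4 lactate peaks and no control peak. The highest had 24 reads (15.4 to 35.7) at 143123997 to 143124582. A pair of others, with 15 and 16 reads, lay at 143295921 to 143296116 and 143296386 to 143297126. These sit at the start of Kcnq1ot1, a noncoding RNA transcribed within Kcnq1 that silences neighbouring genes on the paternal chromosome, whose listed start is at 143296547. The promoter window of Kcnq1ot1 is shown because the second of the pair runs across its start, with CpG pairs in capitals.
Kcnq1ot1, chr7:143296498-143296797, minus strand: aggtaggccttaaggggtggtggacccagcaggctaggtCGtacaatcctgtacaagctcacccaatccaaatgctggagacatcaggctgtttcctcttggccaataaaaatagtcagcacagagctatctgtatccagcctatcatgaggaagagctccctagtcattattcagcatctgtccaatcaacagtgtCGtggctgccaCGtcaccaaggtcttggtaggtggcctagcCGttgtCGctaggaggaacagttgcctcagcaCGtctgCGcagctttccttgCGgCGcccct
This window held 9 CpG pairs. Neither peak reached a −log10 q of 5, at 3.10 and 3.79, while those of the other Kcnq1 peaks were 8.05 and 5.03.

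Over all members, 40 of 128 control body peaks overlapped a lactate peak, or 31.2% (23.4% to 40%), and 40 of 100 lactate body peaks overlapped a control peak, or 40% (30.3% to 50.3%). Over the body peaks of all genes the shares were 38.8% and 37.8%. Peaks with a partner were higher, with median summits of 16 control and 18 lactate reads, than those without, at 13 and 15. All 11 control body peaks that reached a −log10 q of 5 had a partner, and 11 of the 15 lactate ones did. Neither comparison is given here over the body peaks of all genes, so neither can be read as particular to members. At gene ends 5 of 12 control peaks, or 41.7% (15.2% to 72.3%), and 6 of 19 lactate peaks, or 31.6% (12.6% to 56.6%), had a partner. All gene-end peaks had partners at 81.3% and 52.5%.

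Within genes of 50 kb or more with a listed strand, lactate body peaks of members lay more often toward the 5′ end than those of all genes, a difference that was not tested. Of 67 such peaks in 28 genes, 45, or 67.2%, were in the part of the gene nearer the 5′ end than the 3′ end, against 52.7% of 9057 over all such genes. In the control the share was 53 of 106, or 50%, against 49.7%. Peaks of 1 gene share their locus, and 16 of the 67 lactate peaks belong to Kcnh1. Without Kcnh1, left out after its values were seen, 34 of 51 lactate peaks, or 66.7%, lay nearer the 5′ end.

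Genes that work with potassium channels but carry other names were examined in the same way. Of 9 partners, such as the sulphonylurea receptors and the Dpp subunits, Lrrc55 was called at an end in the control alone, with 13 reads, and Amigo1 in the lactate library alone, with 16. Of 4 hyperpolarisation-activated Hcn channels, Hcn3 was lactate-only with 25 reads (16.2 to 36.9) and Hcn4 control-only with 12. Voltage-gated sodium channel genes had 3 of 14 called in the control and 4 with lactate, among them Scn9a with 24 reads (15.4 to 35.7) and 30 reads (20.2 to 42.8). Voltage-gated calcium channel genes had 4 of 26 and 6, with Cacna2d2 the highest at 36 reads (25.2 to 49.8) and 43 reads (31.1 to 57.9). Of 8 sodium-potassium pump genes, none was called in the control and 4 were called with lactate, the highest folds being those of the beta subunits Atp1b3, with 16 reads, and Atp1b1, with 17. The sodium and calcium channel families, like the potassium channels, were thus called at smaller shares of their genes than the 32.0% and 44.8% of all genes. The pump genes, 4 of 8 with lactate, were not below the lactate share of all genes. These families are small, and the differences were not tested.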

How the data were processed

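H4K12la CUT&Tag was measured in 2 Neuro2a libraries, grouped by the treatment in the labels. The submitters' processing notes name mm10 as the build and MACS2, BWA and deepTools as tools. Their versions, settings, and the use of a control library or spike-in were not given in the sources used here. Deposited by the authors was 1 peak list per library, called separately, with each peak's position, an integer score (not used further), its fold enrichment, and −log10 p and q. Summit reads, as whole numbers, and local background were solved from the deposited fold enrichment and −log10 p. The solved values gave back the −log10 p within 0.001 for all but 1 of the control's 46592 peaks and for all 39768 lactate peaks. Peaks were joined to RefSeq genes by at least 1 bp. Channel classes, related families and length classes of under 10, 10 to 50, 50 to 200 and at least 200 kb were used, and the members and lists were chosen with earlier results of these data known. Genes described with values were those called at an end, the 10 with the most gene-body peaks, the 5 with the highest gene-body fold in each library, the 5 longest, and at most 2 genes of each related family, and a few members that enter the counts are not reported by name here. Others named beside a small count were chosen after their values were seen. With 1 library per group, no test between the groups was run. Scripts (Python 3.11.15, pandas 2.3.3, scipy 1.17.1) were tested on simulated data. Promoter windows are not given for 25 members, including Kcna1, Kcnab3, Kcnb2, Kcnd1, Kcne1, Kcng1, Kcng2, Kcnh3, Kcnj11, Kcnj14, Kcnk3, Kcnk6, Kcnk9, Kcnn2, Kcnq1, Kcnq3, Kcns2, Kcnt1, Kcnu1, Kcnv1 and Kcnv2.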

Additional observations from a re-analysis of the deposited data

How the results depend on the processing

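The counts of members were recomputed with windows of 500 bp and 3 kb, 5′ ends alone, summits in place of whole peaks, equal-length lists and stricter q. Of 60 such values 38 stayed within 1.5 times the reported count. With −log10 q held to 5 or more, gene-end calls were 0 for the control and 4 for lactate, so 4 were lactate-only and 0 control-only. Gene bodies were called in 8 and 10 genes with 11 and 15 peaks. These were 8.51% and 10.6% of members, near the 6.85% and 9.80% of all genes. Held to 10 or more, every gene-end count was 0, and 2 and 1 genes had 2 and 1 body peaks. These genes were 2.13% and 1.06% of members, beside 1.75% and 2.11% of all genes. Windows of 3 kb gave 16 control and 29 lactate gene-end calls, beside 39.7% and 52.0% of all genes, with 17 lactate-only and 4 control-only. The 5′ ends alone gave 10 lactate calls, 5 of them lactate-only, where 25 members lack a listed strand. With lists of equal length 2 members, Kcnd2 among them, lost their control gene-end calls. No paired analysis was possible because each group holds 1 library and no test was run.

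Summits under 11 reads were never called, and weaker signal cannot be told from none. The 2 libraries differ in background, and treatment and library cannot be told apart.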
